A study of Gasterosteus aculeatus with 31 samples.

Results

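The females of this study of paternal care in threespine stickleback (Gasterosteus aculeatus) were compared by how they had been reared, using ATAC-seq of brain tissue. They were chosen by the sex label alone, which gave 16 of the 31 fish in the series. Of these, 8 were father-reared females (labelled Day 10), raised by a wild-caught father from Putah Creek, California, and 8 were orphaned females (labelled Day 0), raised by hand. All were 6 to 8 months old and sexually immature, and all had met a moving model of a sculpin, a fish that eats sticklebacks, before the brain was taken about an hour later. By the design, both groups shared that challenge and differed in rearing. Each library came from 1 side of the brain of 1 fish. Father-reared females gave 5 left and 3 right sides and orphaned females 3 left and 5 right sides. The leading number of the fish identifier was read as the family, and by that reading the 16 females came from 16 families in a half-sibling design. By that reading, fish and family were the same unit of replication. The labels do not list the families, so parents shared between differently numbered families are not known. The 15 males of the series had a sister by the same reading and are used below as other fish from the same families.

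ATAC-seq uses the Tn5 transposase, which inserts sequencing adapters where DNA is not packed away by nucleosomes, so that reads pile up over active promoters and enhancers. In sticklebacks the father alone tends the nest: he fans the eggs, retrieves fry that stray and chases them, and early contact with him is known to alter how offspring later behave towards predators. Females of this species are XX and males XY, with groupXIX as the sex chromosome. Females can thus be compared along groupXIX without a difference in copy number.

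The file held read counts for 102149 peaks, most of them 400 bases from start to stop, of which 93652 lay on the 21 linkage groups and 8497 on 667 scaffolds. Each peak is named by its linkage group or scaffold with start and stop, in the coordinates of the deposited file. They carry no gene names. The sources used here do not give the build, and no gene, exon or promoter was therefore assigned to a peak. The tissue label could not be checked against marker genes for the same reason. The sex label was met in each library: groupXIX held 4.39% to 4.53% of the counts in the 16 females, against 3.40% to 3.66% in the 15 males. Father-reared females had 3013093 to 10540612 counts in peaks (median 4491288) and orphaned females 3603879 to 5769719 (median 4839572). The median peak had 21 to 73 counts in a library. None of the 120 pairs of female libraries was identical, and their log2 counts correlated at 0.801 to 0.926 across peaks. The p-values measure the spread between these fish. Below, father-reared female 2 is singled out for its effect on the number of low p-values. Orphaned females 3 and 8 are singled out for their values at a set of peaks. Other females moved single results. Values without such a fish are given beside the results it moved most.

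No peak passed the test for a difference between father-reared and orphaned females. Counts of the 16 females were scaled by TMM, and 100356 peaks passed the filter on low counts. edgeR's quasi-likelihood test with Benjamini-Hochberg adjustment called 0 of them at an adjusted p under 0.05 (0% of peaks), and the lowest adjusted p was 0.92. DESeq2 also called 0, with a lowest adjusted p of 0.81. At an unadjusted p under 0.05 stood 4664 peaks by edgeR (4.65%) and 4222 by DESeq2. By edgeR, 2301 of these were higher in father-reared females (2.29%) and 2363 lower (2.35%). Without scaling factors the same test gave 1232 higher and 3491 lower, with the median of all peaks at -0.035 on the log2 scale.

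The median peak differed by 0.11 on the log2 scale in either direction, with a median 95% half-width of 0.29. For 91.8% of peaks the 95% interval lay within 1.5-fold, and 2-fold held 99.8% of the intervals. Among the weakest decile of peaks the interval lay within 1.5-fold for 69.6%. These intervals are for single peaks and are not adjusted for the number of peaks, so they do not give the difference that the adjusted test would have called. In a half-brain the count at a peak is an average over all cell types, so fewer cells of a type and less open chromatin per cell cannot be told apart.

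How many peaks stood at a low unadjusted p depended most on 1 fish, father-reared female 2. Without it the count at an unadjusted p under 0.05 was 9436 (9.41% of the peaks tested), of which 5280 were higher and 4156 lower in father-reared females, and 1 peak passed. Leaving out any other single female gave counts between 3535 (orphaned female 8) and 5870 (father-reared female 4), with 0 peaks past the threshold. In an alternative chosen after seeing the data, the trend of each library with peak strength was removed as well. The count without father-reared female 2 was then 5693 (5.68%) and no peak passed, with a lowest edgeR adjusted p of 0.23. The part of that trend in the count was not tested.

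The peak that passed without father-reared female 2 was groupXXI 7990810 to 7991210, and it was singled out after its values were seen. Father-reared females had 1.83 CPM (counts scaled to the TMM library size) at the lowest, 2.48 at the median and 15.0 at the highest, and orphaned females 2.05, 8.46 and 19.9 CPM. The highest father-reared value was that of female 2, the other 7 father-reared females lay at 6.02 CPM or below, and the groups overlapped. The log2 difference was -0.94 (SE 0.30, adjusted p = 0.92 in edgeR) in all 16 females and -1.63 without father-reared female 2 (edgeR adjusted p = 0.029). In males, father-reared fish had 4.06 ± 1.89 CPM (SD, n = 8) and orphaned fish 9.30 ± 6.39 CPM (SD, n = 7). Their log2 difference was -1.11, with an unadjusted p of 0.00061 in edgeR's test and an adjusted p of 0.93. The female fit did not use the male values, but the males are brothers of these females. They are thus other fish but not other families, and a difference between families could appear in both sexes. Whether it did at this peak was not tested.

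The 10 peaks with the lowest unadjusted p among those higher in father-reared females lay on groups I, II, IV, V, VII, IX and XIX and on 1 scaffold. All had an edgeR adjusted p of 0.92. These peaks, and the lower ones further on, were picked by p in these same females. How far apart the groups stood at them was largely set by that choice. The first was on the sex chromosome, at groupXIX 9776305 to 9776705. Father-reared females had 10.9 CPM at the lowest, 12.4 at the median and 14.7 at the highest, and orphaned females 5.80, 7.99 and 11.4 CPM. In 7 of 8 father-reared females the value exceeded the highest orphaned female, and the groups overlapped through the remaining one. The log2 difference was 0.57 (SE 0.13, 95% interval 0.32 to 0.83, edgeR adjusted p = 0.92). All 6 other tested peaks within 10 kb were also higher in father-reared females, with a median log2 difference of 0.06 and none at an unadjusted p under 0.05.

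At groupIX 2660257 to 2660657 father-reared females had 7.12, 8.82 and 12.4 CPM (lowest, median and highest) and orphaned females 3.65, 6.22 and 7.24 CPM. Here too 7 of 8 father-reared females stood above the highest orphaned female, and the log2 difference was 0.63 (SE 0.14, adjusted p = 0.92 in edgeR). At groupVII 6676227 to 6676627 the values were 8.00, 10.9 and 14.4 CPM in father-reared females and 6.04, 7.72 and 9.92 CPM in orphaned females. Every father-reared female lay above the orphaned median there, 6 of 8 lay above the highest orphaned fish, and the log2 difference was 0.56 (SE 0.13, adjusted p = 0.92 in edgeR).

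The other higher peaks differed by 0.49 to 1.41 on the log2 scale. At groupV 9664155 to 9664555, father-reared females had 7.32, 13.0 and 25.7 CPM (lowest, median and highest) and orphaned females 5.06, 6.99 and 13.0 CPM, log2 difference 0.81 (SE 0.19, adjusted p = 0.92 in edgeR). The orphaned group was split there, with 2 of its fish close to the father-reared median. Without father-reared female 1, the fish at 25.7 CPM, the log2 difference at groupV 9664155 was 0.52. At groupIV 7965129 to 7965529 the values were 13.6, 18.6 and 25.3 CPM in father-reared females and 10.7, 12.5 and 14.7 CPM in orphaned females, with the spread wider among the father-reared fish. The log2 difference was 0.53 (SE 0.13, adjusted p = 0.92 in edgeR). The 3 peaks on groupI among the 10 started at 15956819, 747993 and 26801220, with log2 differences of 0.61, 0.87 and 0.49. They are far apart on the linkage group. The peak at groupII 4081576 differed by 0.56. In these 4 peaks 4 to 7 of the 8 father-reared females exceeded the highest orphaned female.

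Scaffold_185 held the highest log2 difference among peaks with an unadjusted p under 0.05. At scaffold_185 49860 to 50260, father-reared females had 1.83, 6.74 and 12.4 CPM (lowest, median and highest) and orphaned females 0, 2.21 and 6.05 CPM. The groups overlapped over most of the orphaned range, and the spread within each group was several-fold. The log2 difference was 1.41 (SE 0.35, adjusted p = 0.92 in edgeR). The orphaned female at 0 counts was orphaned female 4, whose depth allows up to 0.543 CPM, taking 3 counts as the limit for a count of 0. A second peak of that scaffold, scaffold_185 6656 to 7056, differed by 1.00 (SE 0.29, edgeR adjusted p = 0.92). By means of log2(CPM + 0.5), it differed by 2.38 within left sides and by -0.59 within right sides. Over the 3 stretches of library numbers these differences were -0.88, 2.06 and 0.97. Father-reared female 3 and orphaned female 4 had no counts at that peak, and neither had the brother of father-reared female 3. The other peaks among the 5 highest log2 differences were groupXIII 18576535 (log2 1.35), scaffold_61 574358 (1.06) and scaffold_366 18477 (0.97), each with overlapping groups. The scaffold_366 18477 value was 0.51 without father-reared female 1 and 1.76 without orphaned female 7, and within the 3 stretches of library numbers it was 2.59 in the first and below 0 in the other two.

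**Figure D1:**
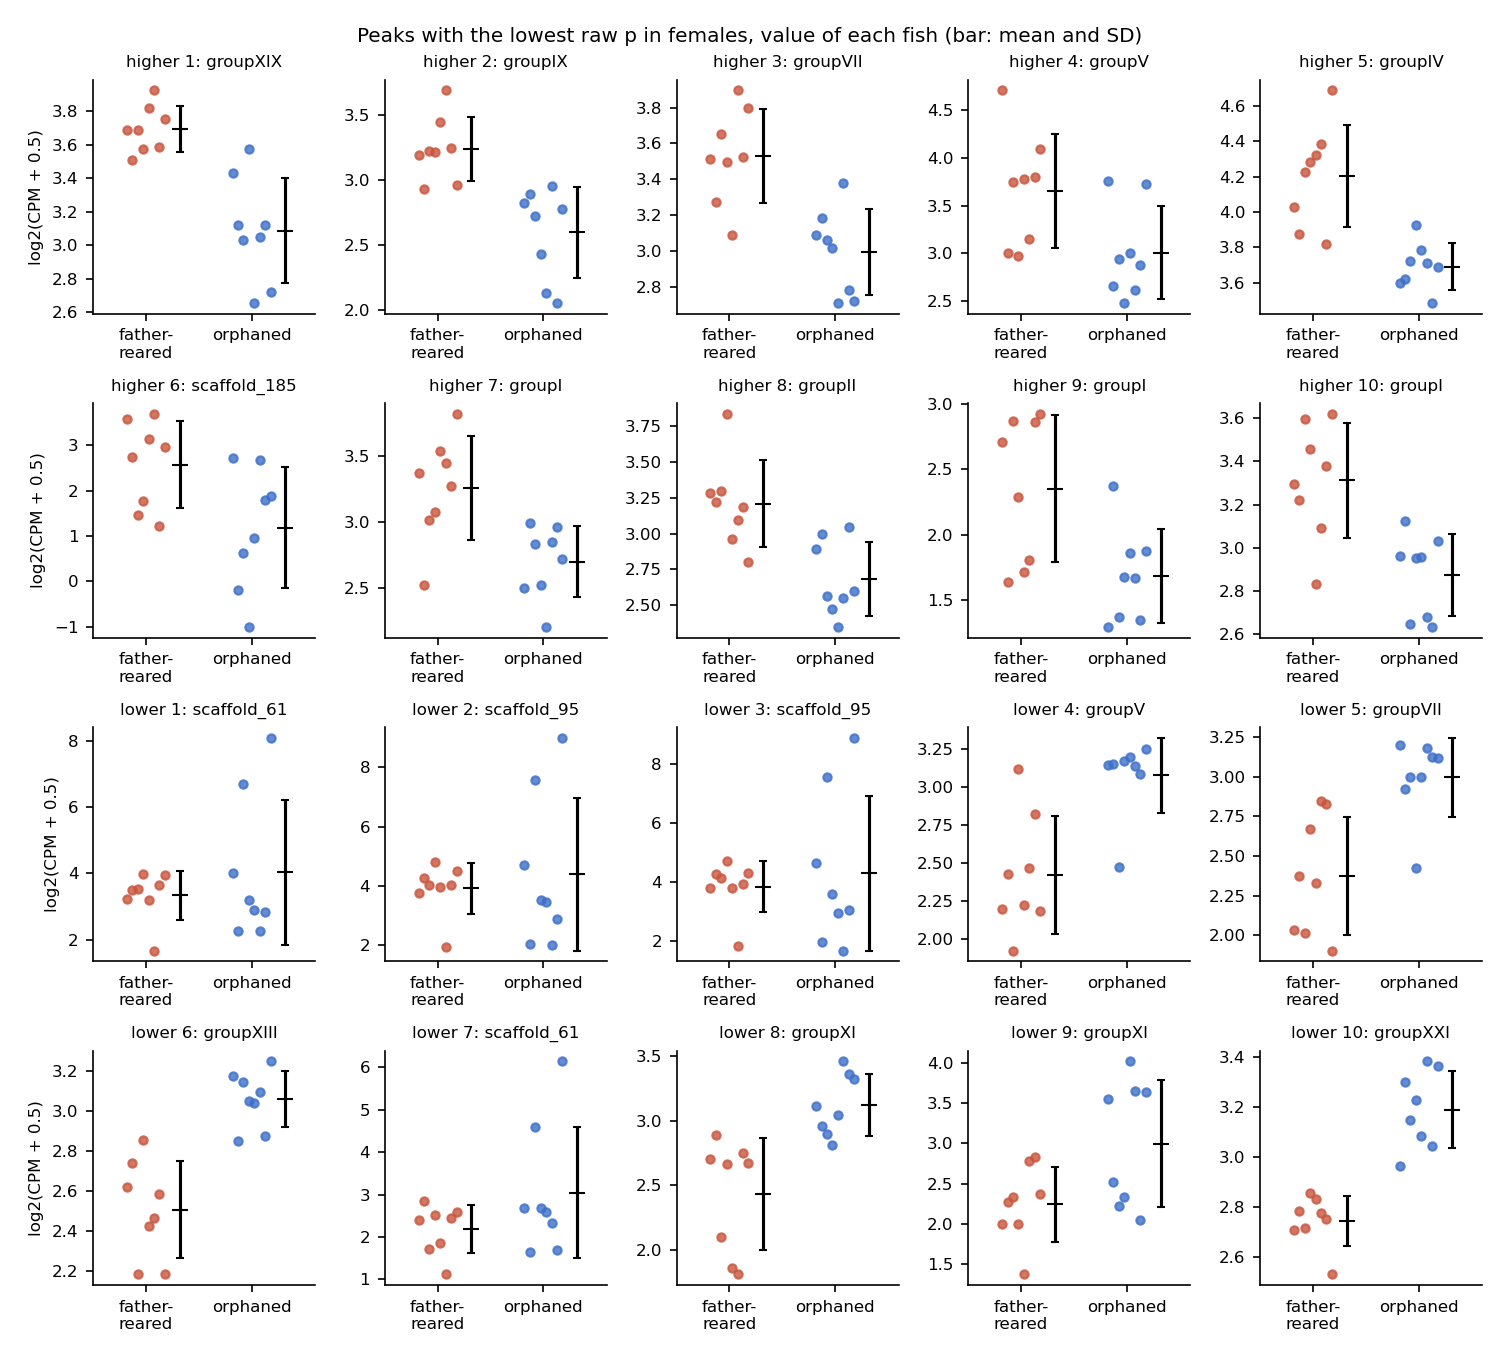
Values of the 20 peaks with the lowest unadjusted p, 10 higher and 10 lower in father-reared females, as log2(CPM + 0.5) on the vertical axis with a scale of its own in each panel. Points are the 8 father-reared (left) and 8 orphaned females (right), and bars are the mean and SD. Only the last panel, on groupXXI, separates the groups completely, and in the scaffold_61 and scaffold_95 panels 2 orphaned females stand far above the rest.

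The 10 peaks with the lowest unadjusted p among those lower in father-reared females were of 2 kinds. On linkage groups lay 6 of them, with log2 differences of -0.48 to -0.89. The other 4 lay on scaffold_61 and scaffold_95, with large differences carried by 2 fish.

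Of the first kind, groupXXI 8024687 to 8025087 was the only one of the 20 peaks whose groups did not overlap. Father-reared females had 5.27, 6.29 and 6.74 CPM (lowest, median and highest) and orphaned females 7.29, 8.61 and 9.92 CPM. All 8 father-reared females thus lay below all 8 orphaned females, and the log2 difference was -0.48 (SE 0.13, 95% interval -0.73 to -0.23, edgeR adjusted p = 0.92). Over all peaks tested, 15 had groups that did not overlap (0.0149%), 8 higher (0.00797%) and 7 lower (0.00698%) in father-reared females. By exact permutation over 12870 assignments, complete separation in either direction has a two-sided p of 0.00016. The share of 0.0149% is thus near the share to be had with no difference. All 15 lay on linkage groups, and scaffolds held 7.84% of all peaks. The peak at groupXXI 8024687 lies 33.9 kb from the groupXXI peak described above.

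At groupV 1945222 to 1945622 father-reared females had 3.29, 4.52 and 8.20 CPM and orphaned females 5.05, 8.38 and 9.00 CPM (lowest, median and highest), log2 difference -0.69 (SE 0.16, adjusted p = 0.92 in edgeR). Each group had 1 fish near the other group: father-reared female 4 was high and orphaned female 3 low. At groupVII 2318289 to 2318689 the values were 3.24, 4.60 and 6.69 CPM in father-reared females and 4.88, 7.85 and 8.71 CPM in orphaned females, log2 difference -0.68 (SE 0.16, adjusted p = 0.92 in edgeR). Orphaned female 4 was the only orphaned fish inside the father-reared range. At groupXIII 15207700 to 15208100 the values were 4.04, 5.26 and 6.74 CPM in father-reared females and 6.72, 7.91 and 9.00 CPM in orphaned females, log2 difference -0.57 (SE 0.14, adjusted p = 0.92 in edgeR). The highest father-reared and the lowest orphaned female were almost level there.

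Both remaining peaks were on groupXI. At groupXI 4708409 to 4708809 father-reared females had 3.01, 5.87 and 6.93 CPM and orphaned females 6.51, 7.96 and 10.5 CPM (log2 -0.60, SE 0.15, edgeR adjusted p = 0.92), and 7 of 8 orphaned females lay above the highest father-reared female. At groupXI 11811944 to 11812344 the orphaned females were split: father-reared females had 2.09, 4.43 and 6.59 CPM and orphaned females 3.65, 8.21 and 15.7 CPM (log2 -0.89, SE 0.23, edgeR adjusted p = 0.92). Of the orphaned females, 4 had 11.2 to 15.7 CPM, and the other 4 were inside the father-reared range.

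Neighbouring peaks were examined for the same direction. Of 76 tested neighbours within 10 kb, 46 differed in the same direction as the named peak (60.5%), against 50.8% of 306025 such pairs over all peaks. Some of these neighbours are themselves among the 20. Within right sides alone all 20 named peaks kept their direction, and within left sides 16 did. The 20 were picked by p and direction in these same females, so these counts were largely set by that choice. They are no test of agreement between sides. The 4 exceptions within left sides were the scaffold_61 and scaffold_95 peaks, and orphaned females 3 and 8 both gave right sides.

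The second kind of lower peak was led by scaffold_95 140288 to 140688. Father-reared females had 3.34, 15.8 and 27.2 CPM (lowest, median and highest) and orphaned females 3.48, 10.7 and 513 CPM. By the median the orphaned females were below the father-reared ones, and the difference in the other direction came from orphaned female 8 at 513 CPM and orphaned female 3 at 189 CPM. The log2 difference was -2.52 (SE 0.56, adjusted p = 0.92 in edgeR), and without those 2 fish it was 0.65. At scaffold_95 143379 to 143779, on the same scaffold, it was -2.49 with all fish and 0.67 without them, and at scaffold_61 897443 to 897843 it was -2.29 and 0.42. Scaffold_61 893233 to 893633 gave -1.64 and -0.01. DESeq2 gave no adjusted p for these 4 peaks.

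The same 2 fish ran through most of the large differences. Of the peaks tested, 15 differed 2-fold or more (0.0149%), 3 higher and 12 lower in father-reared females. Scaffolds held 6 of the 15 (40%), against 7.84% of all peaks. The median spread within groups was an SD of 1.16 on the log2 scale in these 15, against 0.28 over all peaks. In 10 of the 12 lower peaks, orphaned females 8 and 3 were the highest and second highest of the 16 fish. Those 10 lay on 7 sequences: scaffold_95, scaffold_61, groupII at 3399910, groupVII at 10558814 and 10570493, groupIX at 15916895, groupXI at 1597641 and groupXVII at 12415540. Without these 2 fish the log2 differences of the 10 ran from -0.01 to 0.67, and 4 of the 15 peaks stayed at 2-fold or more.

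Summed over those 10 peaks, father-reared females had 27.8, 76.1 and 112 CPM (lowest, median and highest) and orphaned females 38.7, 63.8 and 1640 CPM. Orphaned female 8 had 1640 CPM and orphaned female 3 had 625 CPM, while the next orphaned female had 103 CPM. The 2-fold cut left out other peaks that were high in these 2 fish. At groupIX 15811710, orphaned female 8 had 326 CPM and orphaned female 3 had 145 CPM, against a median of 43.1 CPM in the other 14. At each of the 10 peaks, orphaned female 8 had 2.12 to 2.96 times the CPM of orphaned female 3. Males were split in a like way, in both care groups. Father-reared male 2 had 625 CPM, orphaned male 5 had 871 CPM and orphaned male 7 had 1070 CPM, and the other 12 males had 80.0 CPM or less. Family 39 was the only family in which both siblings, orphaned female 8 and orphaned male 7, were high. These peaks were chosen by their values in these fish, so their sums are a description and carry no test.

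**Figure D2:**
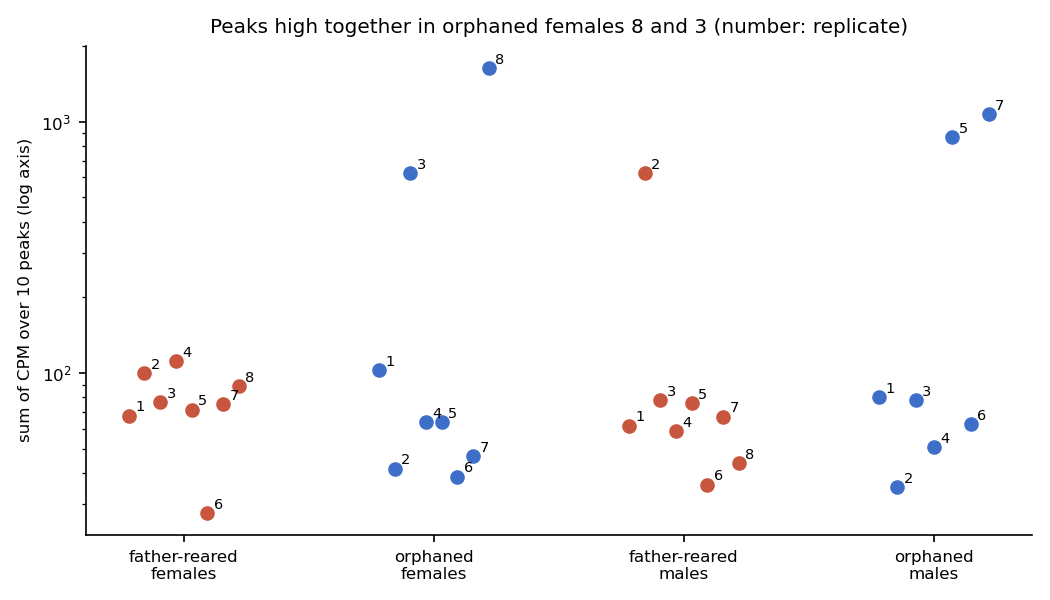
Sum of CPM over the 10 peaks in which orphaned females 8 and 3 were the 2 highest females, on a log axis, with 1 point for each fish numbered by replicate. Of 31 fish, 5 stand at 625 CPM or more, in both sexes and in both care groups, and the other fish at 112 CPM or less.

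The remaining lower peaks of 2-fold or more did not rest on those fish. At groupVIII 1410475 to 1410875 the median was 0.744 CPM in father-reared females and 3.56 CPM in orphaned females, log2 difference -1.64 (SE 0.43, adjusted p = 0.92 in edgeR), or -1.54 without orphaned females 3 and 8. In males the same peak differed by -0.06. At groupXIV 13106624 to 13107024 the median was 0.0937 CPM in father-reared females and 4.73 CPM in orphaned females (log2 -1.20, SE 0.53, edgeR adjusted p = 0.92), with fish either near 0 or up to 8.85 CPM. Both peaks were picked by their size among the 15.

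Along the genome the summed counts of the 2 groups were close. With counts summed per linkage group and over all scaffolds, edgeR called 0 of 22 units (0%), 0 stood at an unadjusted p under 0.05, and the log2 differences ran from -0.009 for the scaffolds to 0.011 for groupXIX. DESeq2 was not run on these sums. GroupXIX held 4.489% ± 0.0226 of the counts in father-reared females and 4.451% ± 0.0449 in orphaned females (SD, n = 8 each). Its summed log2 difference of 0.011 had an SE of 0.006 and an edgeR adjusted p of 0.82. Taken as a share of counts, groupXIX ran from 4.46% to 4.53% in father-reared females and from 4.39% to 4.52% in orphaned females, and the ranges overlapped (two-sided exact permutation p = 0.0552 over 12870 assignments, 0.497 after adjustment over 9 measures). On the left side the share differed by 0.0115 percentage points and on the right by 0.0547. With 1 female left out at a time, the share differed by 0.0294 to 0.048 percentage points. The adjusted p of the exact permutation test then ran from 0.0573 to 0.702. In males, the summed log2 difference of groupXIX was 0.025.

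The share of low p-values on the X chromosome was near that of the other linkage groups. Of 4337 peaks tested on groupXIX, 198 had an unadjusted p under 0.05 (4.57%), against 4.13% to 5.22% over the 22 units, and 108 of them were higher and 90 lower in father-reared females. After the leading peak, the next were groupXIX 3204446 to 3204846 (log2 -0.47, SE 0.14) and groupXIX 7314713 to 7315113 (log2 -0.46, SE 0.15), both with an edgeR adjusted p of 0.92. At groupXIX 3204446 father-reared females had 4.80, 6.89 and 9.67 CPM and orphaned females 5.70, 9.61 and 12.6 CPM (lowest, median and highest). The groups overlapped over most of that range. Leaving groupXIX out before scaling changed no call.

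**Figure D3:**
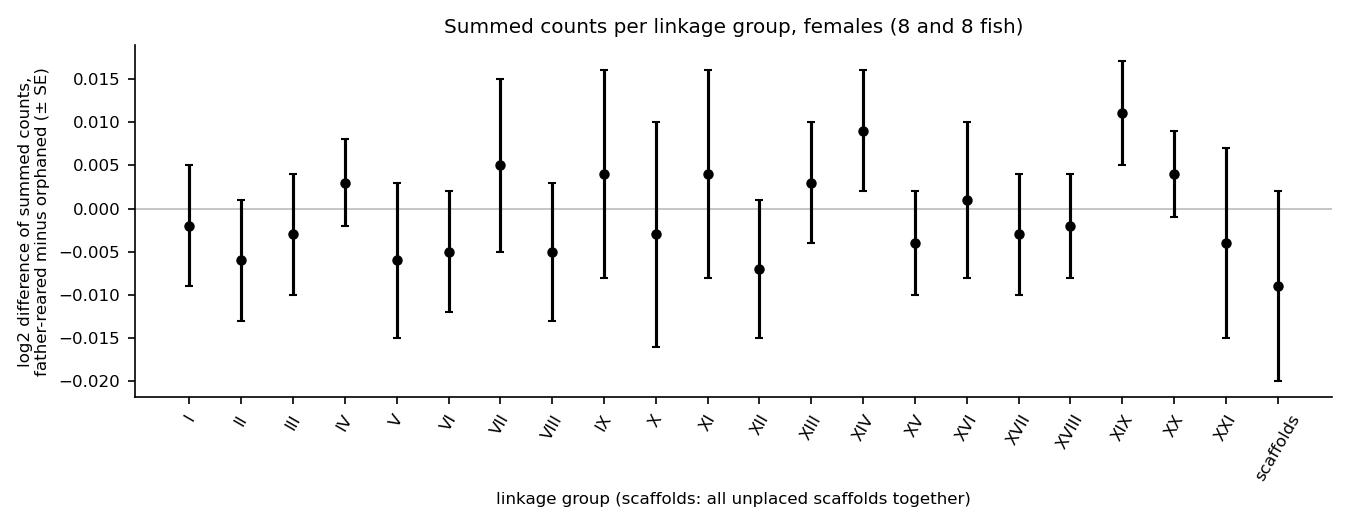
Log2 difference of summed counts, father-reared minus orphaned females, for each linkage group and for all scaffolds together, with the SE from edgeR (8 and 8 fish). All points lie between -0.009 and 0.011, with groupXIX the highest.

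Windows of 1 Mb gave the same picture. Of 953 windows and scaffolds tested, edgeR called 0 (0%), the lowest adjusted p was 0.9, and 20 stood at an unadjusted p under 0.05 (2.1%), 4 higher and 16 lower. DESeq2 was not run on windows. The 413 windows on linkage groups differed by -0.08 to 0.07 on the log2 scale, and 2 of them had an unadjusted p under 0.05. The 5 lowest p-values all belonged to scaffolds with 1 to 6 peaks. Scaffold_207, with 2 peaks, had 2.02 ± 0.512 CPM in father-reared females and 3.57 ± 0.818 CPM in orphaned females (SD, n = 8 each), log2 difference -0.82 (SE 0.21, adjusted p = 0.9 in edgeR). Scaffold_212, scaffold_655, scaffold_1194 and scaffold_732 followed with log2 differences of -0.37, 0.38, 0.47 and -0.47.

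With TMM scaling, median differences were below 0 among weak peaks and above 0 among strong peaks. The place of 0 depends on the scaling: the median of all peaks was 0.006 with TMM and -0.035 without scaling factors. With the peaks ordered by their mean CPM in females, the median log2 difference was -0.048 in the weakest decile and 0.156 in the strongest. Of 10036 peaks in the strongest decile, 430 stood higher and 9 lower in father-reared females at an unadjusted p under 0.05. Of 10036 peaks in the weakest decile, 93 were higher and 311 lower. Over all peaks tested, 2.29% were higher and 2.35% lower. Males gave -0.058 in the weakest decile and 0.105 in the strongest. Removing each library's trend with peak strength took the female values to 0.005 and 0.004. Values near 0 follow from that step by construction and are no test of the trend.

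The share of counts in strong peaks overlapped between the groups and did not pass the test. The strongest 10% of peaks held 24.1%, 30.9% and 36.4% of the counts in father-reared females (lowest, median and highest) and 24.7%, 29.4% and 31.0% in orphaned females. Father-reared females 1, 5, 6 and 8 lay above every orphaned female, and father-reared female 2 lay below all of them. The mean was 30.9% ± 4.23 in father-reared females and 28.7% ± 2.37 in orphaned females (SD, n = 8 each), 2.19 percentage points apart (p = 0.22 by a two-sided exact permutation test, 0.66 after adjustment over 9 measures). Within left sides the difference was -0.708 and within right sides 5.69 percentage points. Over the 3 stretches of 11 library numbers, which may or may not match the library batches, it was -0.699, 1.34 and 5.79. The part of brain side and library number in this measure was not tested. Without father-reared female 2 the groups were 3.16 percentage points apart (exact permutation test, adjusted p = 0.186), and without father-reared female 8 they were 1.39 apart. Without father-reared female 2 the strongest decile of peaks had a median log2 difference of 0.215. Of its 10029 peaks, 2538 were higher and 26 lower at an unadjusted p under 0.05. Of all 100305 peaks of that fit, 5280 were higher and 4156 lower at such a p (9.41% in either direction). Father-reared female 2 had the lowest share of the 16 females, and the decile values were not computed without any other single female.

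**Figure D4:**
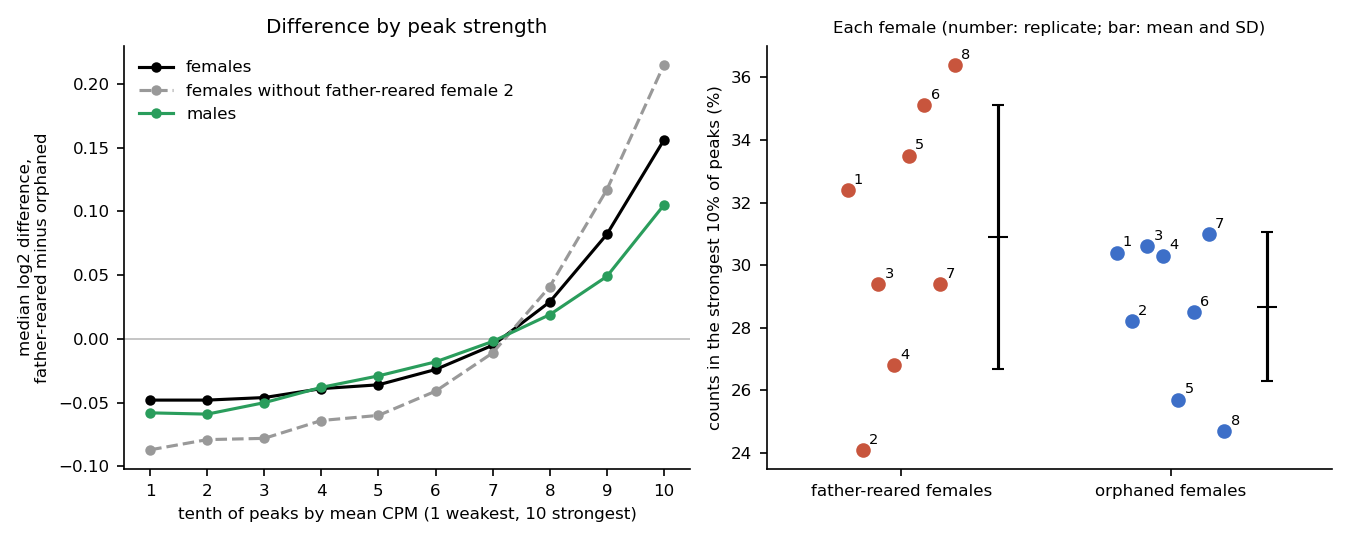
Left, median log2 difference, father-reared minus orphaned, in each decile of peaks by mean CPM, for females, females without father-reared female 2, and males. Right, share of counts in the strongest 10% of peaks for each female, with the mean and SD, where father-reared females span 24.1% to 36.4% and orphaned females 24.7% to 31.0%.

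The first principal component of log2 CPM followed the same fish. It held 23.3% of the variance, and its scores ran from -68.8 (father-reared female 2) to 87.5 (father-reared female 6) in father-reared females and from -66.1 (orphaned female 8) to 15.0 in orphaned females. The mean score was 15.4 ± 55.6 in father-reared females and -15.4 ± 31.4 in orphaned females (SD, n = 8 each, two-sided exact permutation p = 0.19, adjusted 0.66). The difference of 30.8 was 42.8 without father-reared female 2 (exact permutation test, adjusted p = 0.186) and 20.5 without father-reared female 6. It was -8.35 within left sides and 79.0 within right sides, and -5.60, 18.5 and 77.7 over the 3 stretches of library numbers. Father-reared females were the more scattered group on this component. The mean correlation of libraries was 0.852 within groups and 0.853 between groups (two-sided exact permutation p = 0.721, adjusted 0.86). Total counts, the share on scaffolds, the share of peaks with 0 counts and components 2 and 3 had adjusted p-values of 0.713 to 0.86 by the same exact permutation test.

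Males offer the same peaks in other fish of the same families. Fitted alone, the 15 males gave 0 peaks past the threshold by edgeR (0% of 100264 peaks) and 5217 at an unadjusted p under 0.05 (5.2%), and DESeq2 gave 0 and 4689. Of the 20 peaks with the lowest unadjusted p in females, 16 differed in the same direction in males. Of these, 5 also had an unadjusted p under 0.05 there by edgeR, 4 of them on scaffold_61 and scaffold_95 and 1 on scaffold_185. At those 4 peaks orphaned males 5 and 7 and father-reared male 2 were the highest males. At scaffold_95 140288 they had 258, 329 and 191 CPM, and the next highest male had 18.3 CPM. With orphaned females 3 and 8 left out of the female fit, 13 of the 20 had the same direction as in males. Over all 100120 peaks tested in both sexes, 57.8% had the same direction, with the trend by peak strength left in. Of the 14 peaks of 2-fold or more that were tested in both sexes, all 14 had the same direction with all females in the fit. Without orphaned females 3 and 8 only 5 did, and 9 of the 10 peaks in which those fish were highest had the opposite direction to males. The male fit kept father-reared male 2 and orphaned males 5 and 7, which were high when those 10 peaks were summed. High fish were thus left out of 1 sex only, so these counts do not show that the sexes differ at those peaks.

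The 4 of the 20 peaks with the other sign in males were small there. At groupXIX 9776305 father-reared males had 4.60 ± 1.06 CPM (n = 8) and orphaned males 5.53 ± 2.29 CPM (SD, n = 7), log2 difference -0.24 (SE 0.20, adjusted p = 0.93 in edgeR). The peaks at groupI 15956819, groupXIII 15207700 and groupXXI 8024687 differed by -0.22, 0.11 and 0.01 in males.

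**Figure D5:**
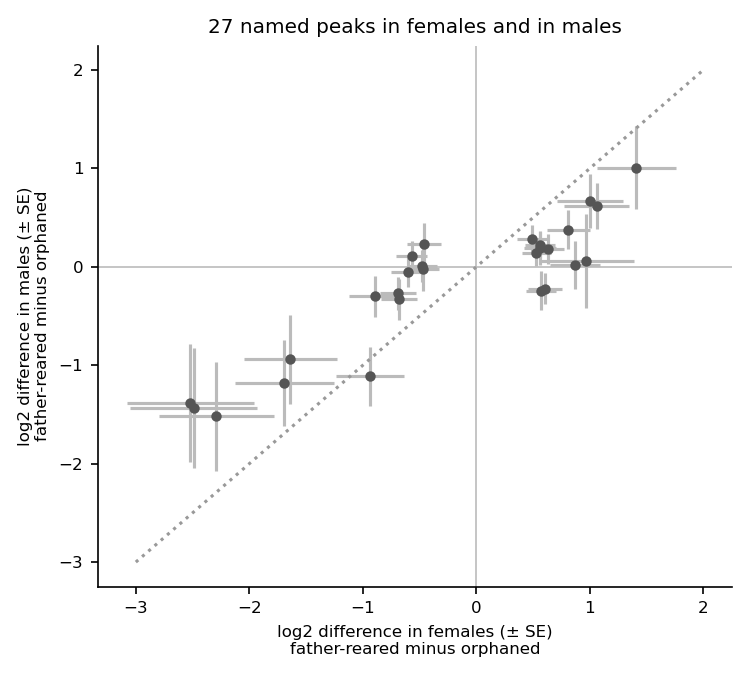
Log2 difference, father-reared minus orphaned, in females (horizontal) and in males (vertical) for the 27 named peaks tested in both sexes, with SE bars and a dotted line where both are equal. The 5 peaks near or below -1.6 in females are those of scaffold_61, scaffold_95 and groupXI 1597641. Of the 20 peaks with the lowest unadjusted p, 16 have the same direction in both sexes, and 13 do without orphaned females 3 and 8, with all males kept.

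Whether the care difference depended on sex was tested as an interaction in all 31 fish, and no peak passed. The median 95% half-width of this test was 0.42 on the log2 scale, against 0.29 in the female fit. The absence of calls thus does not show that no peak is particular to females. Of 100808 peaks edgeR called 0 (0%), with a lowest adjusted p of 1 and 3519 at an unadjusted p under 0.05 (3.49%), and DESeq2 called 0 with 3165. With a random replicate block for family, limma also called 0. The lowest p was at groupI 4007921 to 4008321. Father-reared females had 3.89, 5.09 and 5.83 CPM (lowest, median and highest) and orphaned females 2.17, 3.29 and 4.47 CPM. Father-reared males had 2.29, 3.56 and 4.97 CPM and orphaned males 4.53, 5.05 and 6.57 CPM. The female groups overlapped a little and ran opposite to the male groups, with a log2 difference of 0.62 in females and -0.48 in males and an interaction of 1.09 (SE 0.25, edgeR adjusted p = 1). The next peak, scaffold_89 10177 to 10577, had an interaction of -5.78 (SE 1.35) and was not tested among females alone. Father-reared males had 0.359, 14.5 and 24 CPM there (lowest, median and highest) and orphaned males 0, 0.229 and 0.757 CPM. Its female means rested on 1 father-reared female at 22.5 CPM and 1 orphaned female at 22.2 CPM, while the median was 0.291 CPM in father-reared females and 0.234 CPM in orphaned females. At scaffold_56 749559 to 749959 the log2 difference was -0.92 in females and 0.87 in males (interaction -1.80, SE 0.42, edgeR adjusted p = 1). Father-reared females had 1.66, 2.72 and 5.19 CPM there and orphaned females 2.26, 3.87 and 11.6 CPM.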

How the data were processed

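Left or right brain sides of 31 fish were profiled by ATAC-seq. Per the labels' protocols, cryopreserved homogenate was transposed with Tn5, amplified by PCR and prepared in batches whose members are not listed. Tools listed in the submitters' processing notes, with no roles, are MACS2 2.2.5, DiffBind 3.14.0, Bowtie2 2.3.5.1, Picard 2.10.1, SAMtools 1.9 and FastQC 0.11.8. Not given in the sources used are the transposase shift, duplicate handling and the genome build. The values the authors deposited are raw read counts per peak, not normalized. Reads amplified by PCR carry no molecular identifiers and are not independent, and limits for 0 counts cover counting error only.

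The 16 females were fitted alone with edgeR 4.0.16 in R 4.3.3: filterByExpr (minimum count 10, 1793 peaks removed), TMM scaling, quasi-likelihood F tests and Benjamini-Hochberg adjustment, with 0.05 as the threshold. The same test was run on sums per 1 Mb window, scaffold and linkage group, in males alone, and for care by sex in a model of 4 group means. DESeq2 1.42.0, limma 3.58.1 and sva 3.50.0 served alternatives: other scalings and filters, brain side, library stretch, 1 surrogate variable and each female left out. Library measures were tested by exact two-sided permutation (numpy 2.4.6). SEs follow from the F statistic. The fit was tested on simulated data. CPM of males at named peaks comes from the male fit, and CPM of the summed peaks and care-by-sex peaks from the fit of all 31 fish.

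Peaks were named by a rule: the 10 lowest unadjusted p in each direction, the 5 highest and 5 lowest log2 differences at an unadjusted p under 0.05, 3 peaks on groupXIX, 3 for care by sex and 5 windows. The members, this rule and the tests were chosen with earlier results of these data known. Replicates were numbered in accession order, which pairs no father-reared female with an orphaned female. By the fish identifiers, father-reared males and females of the same number share a family, such as male 2 and female 2. Orphaned males and females of the same number do so only in part.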

Additional observations from a re-analysis of the deposited data

Results flagged for a closer look

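Within the 8 fish of a group, 16 of 72 sets of values had a single fish far from the nearest other fish. These sets covered 28 named peaks and 8 library measures in each care group. For values with a normal distribution, chance flags about 1 in 20 groups. CPM and total counts were used here without a log, and their distribution was not checked. The peaks are not independent of each other, and several were named because of those same fish.

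Orphaned female 8 was far above the others at 5 peaks, with 275 CPM at scaffold_61 897443 (median of the other 7 orphaned females 7.01), 513 CPM at scaffold_95 140288 (10.4), 471 CPM at scaffold_95 143379 (7.75), 69.9 CPM at scaffold_61 893233 (5.56) and 49.0 CPM at groupXI 1597641 (2.90).

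Among father-reared females, female 2 had 15.0 CPM at groupXXI 7990810, against a median of 2.43 in the other 7. Female 4 had 13.8 CPM at groupII 4081576 (8.61), and female 8 had 41.3 CPM at scaffold_61 574358 (12.6). Female 1 had 10540612 total counts (3927194), female 8 had 9.05% of its counts on scaffolds (8.72), and female 6 had a score of -79.5 on principal component 3 (3.64).

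Among orphaned females, female 2 had 4.67 CPM at groupI 747993, against a median of 2.68 in the other 7. Female 3 had 5.05 CPM at groupV 1945222 (8.40), female 4 had 4.88 CPM at groupVII 2318289 (8.20), female 6 had 6.97 CPM at groupXIII 18576535 (1.12) and female 7 had 17.3 CPM at scaffold_366 18477 (2.17).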

How the results depend on the processing

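No peak passed under the alternatives run on the female comparison, with 1 exception: 1 peak passed without father-reared female 2 (groupXXI 7990810, log2 -1.63, edgeR adjusted p = 0.029). Over the fits that left out 1 female each, 0 to 1 peaks passed and the lowest adjusted p ran from 0.029 to 1. Without father-reared female 2 the count at an unadjusted p under 0.05 was 9436, against 4664 with all females. With orphaned females 3 and 8 left out together, an alternative chosen after seeing the data, 4 named peaks changed sign: scaffold_61 897443 (0.42), scaffold_95 140288 (0.65), scaffold_95 143379 (0.67) and groupXI 1597641 (0.06). The other 829 of 833 values over 28 named peaks kept their direction. These values are refits of the counts by which the peaks were named, so most directions were set by that choice. Leaving out 1 female at a time, the difference in total counts ran from -532474 to 542886, the mean correlation within minus between groups from -0.00265 to 0.00119, and the component 3 score from -3.08 to 15.4. Their reversals were at -532474 (without father-reared female 1), 0.00119 (without father-reared female 2), 0.00045 (without orphaned female 3), -3.08 (without father-reared female 5) and -2.23 (without father-reared female 8), and the cause was not tested. Windows and linkage groups gave 0 calls under each alternative run. No paired analysis was run. By the reading of the fish identifiers each female came from a family of her own, and shared parents are not listed. Replicate numbers were given in accession order and pair no father-reared female with an orphaned female. A family block could be used only for care by sex, where 0 peaks passed with and without it. At a median of 21 to 73 counts per peak, the median 95% half-width was 0.29 on the log2 scale.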
